A study of Drosophila melanogaster with 6 samples.

Results

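The midgut of Pe day 3 flies was compared with that of Pe day 0 flies, which took in 4 of the 6 libraries of the series, 2 in each group. The comparison was described across the 8350 genes with a deposited mean of at least 20 normalised counts over all libraries, out of 14026 genes in the table. Just inside that minimum lay CG17803 (mean 20.02, log2 difference -0.36) and ths (20.1, -1.75), and just outside it CR41507 (19.9, -0.91). All flies were wild-type Oregon-R Drosophila melanogaster, and total RNA was taken from the adult midgut. Pe day 3 flies were 7 to 8 days old and Pe day 0 flies 4 to 5 days old, and both had received a treatment that the labels call Pe and do not spell out. A further group, Mock day 0 (2 libraries), had received sucrose at 4 to 5 days of age and is given beside the others as the baseline. The labels name no sucrose group at 7 to 8 days, so the time since Pe and the age of the flies cannot be told apart.

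The fly midgut is an epithelium of absorptive enterocytes and hormone-secreting enteroendocrine cells that intestinal stem cells renew. When enterocytes are damaged, cytokines of the Unpaired family and ligands of the EGF receptor reach the stem cells and drive them to divide, through JAK-STAT and EGFR signalling. The series was framed as a look at how such regeneration begins and how it stops. Whether regeneration had begun at Pe day 0 or stopped by Pe day 3 was not tested here.

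The table analysed holds no values per library. Levels below are therefore 1 estimated mean normalised count per group (reads divided by a scaling factor per library), and the spread between libraries enters through the standard error (SE) of the log2 difference, Pe day 3 minus Pe day 0. A gene was called when its p-value from the Wald test, adjusted over all 8350 genes, was under 0.05. The header of the deposited table names no groups. Its first block of columns was taken as Pe day 0 and its second as Pe day 3 because the title lists the groups so, and all directions rest on this reading.

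Of the 8350 genes 52.6% were called: 2281 rose (27.3%) and 2109 fell (25.3%). The difference was at least 2-fold for 863 of the rises (10.3% of all genes) and 820 of the falls (9.82%). Among genes with a mean of at least 100, the 12 largest rises under the naming rule included digestive proteases and mannosidases. The 12 largest falls included small secreted peptides and cytokines. Of these 12 only Gadd45 stood above 100 at Pe day 3 or in Mock. The others, Drsl3 among them, reached that mean through Pe day 0 alone, so their falls follow in part from that minimum. Ser8, which encodes a serine protease, stood at 2654 normalised counts at Pe day 3, against 39.8 at Pe day 0 and 3260 in Mock, a 66.6-fold rise. Drsl3, a drosomycin-like peptide gene, stood at 12.2 at Pe day 3, against 1678 at Pe day 0 and 12.3 in Mock, a 138-fold fall. Outside the naming rule and chosen after their values were seen, CG12057 was 353-fold higher (128882 at Pe day 3, 365 at Pe day 0) and CG14204 was 266-fold lower (21.5 at Pe day 3, 5712 at Pe day 0).

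The balance of rises and falls depends on the scale. Total normalised counts came to 21900000 at Pe day 3, against 14100000 at Pe day 0 and 22300000 in Mock, from an estimated 17600000 to 20100000 reads per library. The 20 most abundant genes held 24.99% of the counts at Pe day 3 and 12.98% at Pe day 0. Scaling by library totals instead moves every log2 difference by -0.64, calls 72.3% of genes, and puts 778 higher (9.32%) and 5263 lower (63%). Leaving those 20 genes out of the totals moves it by -0.42 and calls 65.1%, with 1168 higher (14%) and 4268 lower (51.1%). All 778 and all 1168 were also called higher on the deposited scale, and all 2109 genes called lower there were called lower on both other scales, while 173 of the 2281 risers turned to lower with library totals. Counts with library totals are given beside each list below. List counts are to be read against the shares over all genes. These are 27.3% higher and 25.3% lower on the deposited scale, and 9.32% and 63% with library totals. A list near those shares moved no more often than genes at large. For comparison, the authors' deposited table against Mock has 728 genes higher (8.75%) and 742 lower (8.92%) of 8316 at Pe day 3, and 2228 higher (26.7%) and 2388 lower (28.6%) of 8350 at Pe day 0.

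**Figure D1:**
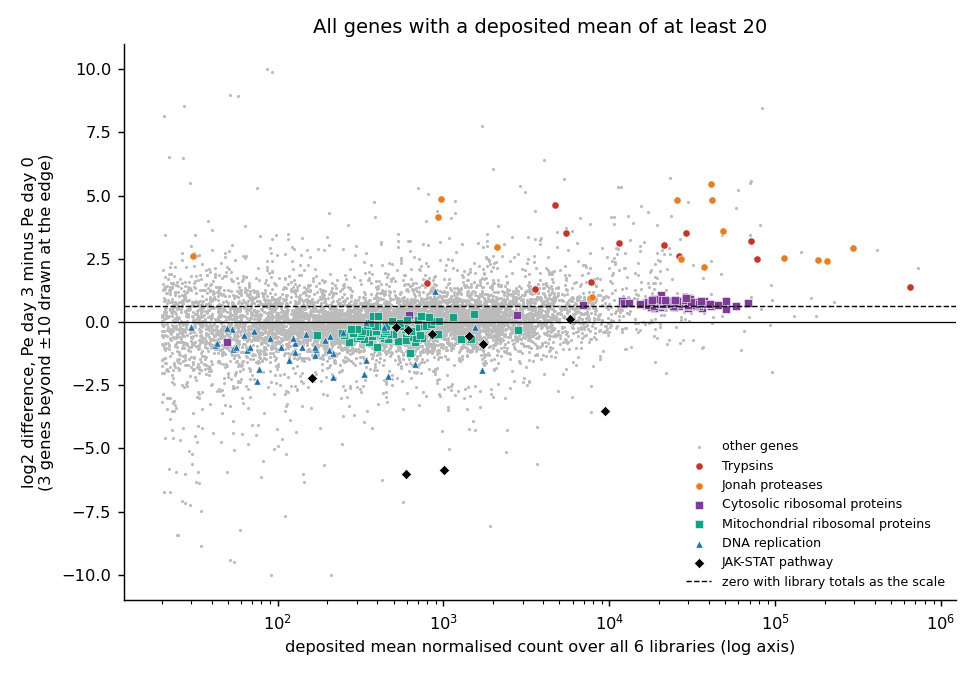
Log2 difference (Pe day 3 minus Pe day 0) of each of 8350 genes against its deposited mean on a log axis, with 6 gene lists in colour and a dashed line where zero lies with library totals as the scale. Trypsins and Jonah proteases lie above both lines, ribosomal protein genes of the cytosol near the dashed line, and upd2, upd3 and Socs36E of the JAK-STAT list far below.

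The cytokine genes upd3 and upd2, which act through JAK-STAT signalling, were lower at Pe day 3. The cytokine gene upd3 stood at 51.2 normalised counts at Pe day 3, against 2951 at Pe day 0 and 17.1 in Mock, a log2 difference of -5.85 (SE 0.22). Its relative upd2 stood at 26.9 at Pe day 3, against 1758 at Pe day 0 and 7.87 in Mock (-6.03, SE 0.31). They fell 57.6-fold and 65.4-fold, and both were above Mock at Pe day 3 in the authors' deposited table (adjusted p = 0.000111 for upd3 and 0.00512 for upd2). The mean of upd2 reached the minimum through Pe day 0 alone, so its fall follows in part from that minimum. Socs36E, a target of the pathway that feeds back to inhibit it, was at 2103 at Pe day 3, against 24403 at Pe day 0 and 1553 in Mock, and did not pass against Mock in the authors' deposited table (adjusted p = 0.0598). Stat92E, the transcription factor, was at 6195 at Pe day 3 and 5677 at Pe day 0 and was not called; its direction turns with library totals. In all, 7 of 10 tested JAK-STAT genes fell and 0 rose, and with library totals 10 fell and 0 rose. The median log2 difference was -0.71, against -0.01 over all genes tested.

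Of the EGF receptor's ligand genes, vn and Krn fell, spi rose on the deposited scale alone of the 3 scalings, and the gene of the receptor rose. The neuregulin-like ligand gene vn was at 27.0 at Pe day 3, against 492 at Pe day 0 and 23.9 in Mock, an 18.2-fold fall. Krn, a TGF-alpha-like ligand gene, was at 494 at Pe day 3, against 1075 at Pe day 0 and 268 in Mock. It fell 2.18-fold and was 1.85-fold above Mock in the authors' deposited table. The protease gene rho, which releases such ligands, was at 24.6 at Pe day 3, against 114 at Pe day 0 and 3.66 in Mock. It overlaps Ptp61F on the other strand, and its call was lost with the widest error tried. Its mean reached the minimum through Pe day 0 alone, so its fall follows in part from that minimum. The ligand gene spi was at 652 at Pe day 3, against 455 at Pe day 0 and 725 in Mock (0.52, SE 0.14), but with library totals its difference turned to -0.12 and was not called. Egfr itself was at 498 at Pe day 3, against 224 at Pe day 0 and 572 in Mock (1.15, SE 0.19). Over the 16 EGFR genes 3 rose and 5 fell, which became 1 and 12 with library totals.

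Genes of JNK signalling, wounding and cell death moved both ways, with several large falls. Gadd45, a stress-induced activator upstream of JNK, was at 212 at Pe day 3, against 10486 at Pe day 0 and 241 in Mock, a 49.4-fold fall. The Ets factor gene Ets21C, which acts with JNK, was at 274 at Pe day 3, against 4138 at Pe day 0 and 121 in Mock. Pvf1, a ligand gene of the VEGF type, fell 4.30-fold. The JNK phosphatase gene puc (-0.55, SE 0.14) and the matrix metalloproteinase gene Mmp1 (-0.60, SE 0.14) fell by less, and both were above Mock at Pe day 3 in the authors' deposited table, puc 1.68-fold and Mmp1 1.44-fold. The TNF gene egr rose (0.93, SE 0.21), a call lost with library totals. The tyrosine hydroxylase gene ple, a wound response gene of the epidermis, also rose, to 2842 at Pe day 3, against 101 at Pe day 0 and 572 in Mock (4.81, SE 0.97). Of 21 tested genes 6 rose and 11 fell (1 and 15 with library totals). In the apoptosis list, 1 of 10 rose and 6 fell (1 and 9 with library totals). Among them, p53 stood at 445 at Pe day 3, against 2954 at Pe day 0 and 297 in Mock, and the initiator caspase gene Dronc at 420, against 2687 at Pe day 0 and 236 in Mock.

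BMP genes moved both ways, and of 16 in the BMP and activin list 6 rose and 4 fell (2 and 7 with library totals). The gene cv-2, for a secreted BMP-binding protein, fell 11.1-fold (256 at Pe day 3, 2825 at Pe day 0, 108 in Mock). The inhibitor gene Dad (-1.40, SE 0.13) and the transducer gene Mad (-0.86, SE 0.12) fell as well, while the type II receptor gene wit rose (1.70, SE 0.20). In the insulin and TOR list 9 of 16 rose and 3 fell (3 and 8 with library totals). Thor, which encodes the 4E-BP repressor of translation, was at 11891 at Pe day 3, against 3667 at Pe day 0 and 8753 in Mock. Rheb, the activator of TOR, rose 2.26-fold and the receptor gene InR fell by 0.91 (SE 0.23). ImpL2, a secreted insulin antagonist gene, was at 1017 at Pe day 3 and 1089 at Pe day 0, against 230 in Mock. Its difference between the Pe groups was -0.10 (95% interval -1.10 to 0.90), too wide to tell a rise from a fall, whereas it was 4.43-fold above Mock at Pe day 3 in the authors' deposited table. Arc1, a capsid-forming gene derived from a retrotransposon Gag, was likewise at 1407 at Pe day 3 and 1622 at Pe day 0 (-0.21, SE 0.17, not called), against 99.01 in Mock; with library totals it was called lower.

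**Figure D2:**
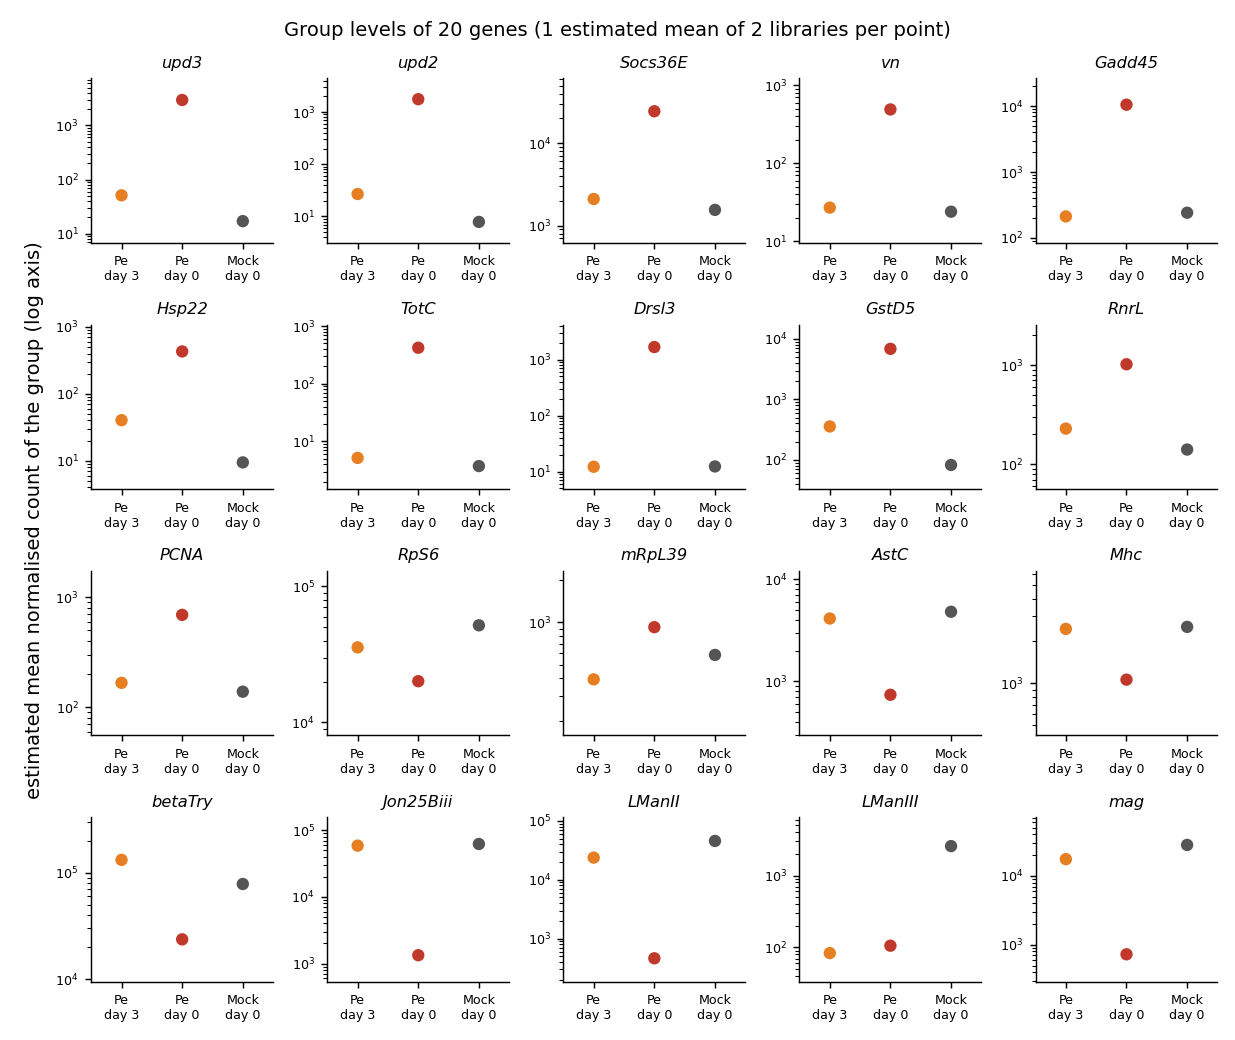
Estimated mean normalised count (log axis, own range per panel) of 20 genes at Pe day 3, Pe day 0 and in Mock, 1 point per group of 2 libraries. Cytokine, stress and replication genes peak at Pe day 0, digestive enzyme genes are lowest there, RpS6 at Pe day 3 lies between Pe day 0 and Mock, and LManIII at Pe day 3 lies beside Pe day 0, far below Mock.

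Many genes of the heat shock response were lower at Pe day 3. Small heat shock protein genes, whose products hold unfolded proteins in solution, fell in 4 of 5 cases and rose in 1, with the same counts under library totals. Hsp22 was at 40.4 at Pe day 3, against 430 at Pe day 0 and 9.45 in Mock, and Hsp23 at 42.2, against 280 at Pe day 0 and 14.9 in Mock. Hsp27 fell 2.64-fold, and l(2)efl, the riser, went the other way (1.52, SE 0.31). In the list of larger chaperones 8 of 15 fell and 0 rose (12 and 0 with library totals). Hsp83, the Hsp90 gene, was at 17646 at Pe day 3, against 28976 at Pe day 0 and 36614 in Mock, and thus lowest at Pe day 3. The mitochondrial chaperonin gene Hsp60A was lowest at Pe day 3 too, at 5527, against 8791 at Pe day 0 and 8681 in Mock. Hsp68 and Hsp70Aa are named here after their values were seen. Hsp68 was at 78.4 at Pe day 3 and 632 at Pe day 0, a call lost with the widest error tried. Hsp70Aa, at 0 estimated reads at Pe day 3, was at least 157-fold lower than at Pe day 0 against a floor of 3 counts over the group, which covers counting error only. It reached the minimum mean through Pe day 0 alone.

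Some peptide genes of stress and defence reached the minimum mean through Pe day 0 alone, so their falls follow in part from that minimum. Of the Turandot stress peptides, 2 of 8 genes in the table reached it. TotC was at 5.19 at Pe day 3, 421 at Pe day 0 and 3.75 in Mock, and TotA at 6.36, 406 and 14.3 in the same order of groups. Of 7 drosomycin-like genes, 3 reached it, and besides Drsl3 these were Drsl2 (10.9 at Pe day 3, 551 at Pe day 0) and Drsl4 (6.32 at Pe day 3, 180 at Pe day 0). None of the 14 inducible antimicrobial peptide genes in the table reached a mean of 20. In the Imd and peptidoglycan recognition list 5 of 20 rose and 10 fell (3 and 14 with library totals). Rel, the NF-kappaB factor of the Imd pathway, was at 3233 at Pe day 3, against 8519 at Pe day 0 and 2364 in Mock. The circulating receptor gene PGRP-SA fell to 25.6 at Pe day 3, against 159 at Pe day 0 and 14.4 in Mock, and it too reached the minimum mean through Pe day 0. PGRP-SC1a (3.02, SE 0.25) and PGRP-SC2 (2.25, SE 0.19), whose products degrade bacterial peptidoglycan, rose. PGRP-SC1a at 1066 was 4.00-fold below Mock at Pe day 3 in the authors' deposited table.

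Detoxification genes split. Among the 30 genes for glutathione S-transferases, 9 were higher and 14 lower at Pe day 3 (5 and 18 with library totals). GstD5 was at 356 at Pe day 3, against 6852 at Pe day 0 and 82.2 in Mock, and GstD1 at 7372, against 16160 at Pe day 0 and 3805 in Mock. GstE10 (-3.31, SE 0.27) fell with them, while GstT4 (2.15, SE 0.17), GstE7 (1.51, SE 0.20) and GstE12 (1.37, SE 0.10) rose. Of 59 cytochrome P450 genes 27 rose and 18 fell, which became 19 and 26 with library totals. Cyp6w1 was at 4782 at Pe day 3, against 135 at Pe day 0 and 4366 in Mock, and Cyp4d1 at 1146, against 33.9 at Pe day 0 and 1231 in Mock. Cyp6d2 went the other way, at 742 at Pe day 3, 5985 at Pe day 0 and 371 in Mock, as did Cyp12c1 (-1.74, SE 0.09) and Cyp309a1 (-2.06, SE 0.17). Those last 3 genes were above Mock at Pe day 3 in the authors' deposited table, by 1.998-fold, 1.89-fold and 2.92-fold.

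Most genes of DNA replication fell, and a smaller share of those of mitosis and cytokinesis did. In the DNA replication list 24 of 39 genes fell and 1 rose (37 and 1 with library totals), at a median of -0.99. RnrL, a ribonucleotide reductase subunit gene, was at 229 at Pe day 3, against 1018 at Pe day 0 and 141 in Mock. PCNA, which encodes the replication clamp, was at 167, against 693 at Pe day 0 and 139 in Mock, and RpA-70, of the single-strand binding complex, at 953, against 3554 at Pe day 0 and 592 in Mock. RnrL and RpA-70 were above Mock at Pe day 3 in the authors' deposited table (adjusted p = 0.00514 and 2.45e-05), and PCNA did not pass (0.455). The riser, Psf3 (1.23, SE 0.18), a GINS subunit gene, overlaps CG17841 on the other strand. Of 38 genes of mitosis and cytokinesis 14 fell (36.8%), 0 rose and 24 were not called, and 31 fell with library totals. The mitotic kinase gene polo was at 56.9 at Pe day 3, against 180 at Pe day 0 and 64.4 in Mock, and the kinesin gene Klp10A at 1027, against 2106 at Pe day 0 and 762 in Mock. Neither stg, the Cdc25 phosphatase that opens mitosis (-1.27, SE 0.65), nor CycB, a mitotic cyclin (-0.80, SE 0.43), was called on the deposited scale, and with library totals both were called lower.

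Markers of progenitor cells did not move as 1 group. In the list of progenitor and Notch genes 6 of 20 rose and 7 fell (3 and 12 with library totals). The Notch ligand gene Dl, a stem cell marker, fell 2.41-fold (84.9 at Pe day 3, 204 at Pe day 0, 65.3 in Mock). The progenitor factor gene esg was at 774 at Pe day 3, against 281 at Pe day 0 and 671 in Mock, and mira, a gene of asymmetric division, at 811, against 279 at Pe day 0 and 946 in Mock. The Notch inhibitor gene numb fell (-1.08, SE 0.13). In these bulk samples fewer cells of a type and less RNA per cell cannot be told apart. Enteroendocrine genes rose in 20 of 23 cases and fell in 1 (12 and 1 with library totals), at a median of 0.98. The peptide hormone gene AstC was at 4133 at Pe day 3, against 739 at Pe day 0 and 4816 in Mock. AstA (1.67, SE 0.12) and CCHa2 (1.39, SE 0.13) rose with it and both were above Mock in the authors' deposited table, 1.32-fold and 1.41-fold. ITP, an ion transport peptide gene, was the 1 that fell (-1.32, SE 0.16), and pros, which marks these cells, rose (0.83, SE 0.25), a call lost with library totals.

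Genes for digestive proteases, which enterocytes secrete into the gut, rose as whole families. All 12 trypsin genes rose (11 with library totals), at a median log2 difference of 2.83, as did 15 of 16 Jonah protease genes (14 with library totals), at a median of 2.77. Trypsins held 5.54% of all normalised counts at Pe day 3, against 2.51% at Pe day 0 and 5.24% in Mock. The Jonah share was 7.39% at Pe day 3, against 1.72% at Pe day 0 and 5.51% in Mock. Reads shared between near-identical copies make single members of these families uncertain, as for the lysozymes, alpha-mannosidases, GstD, PGRP-SC1 and Hsp70 genes. The shares do not depend on the scale, and for both families the share at Pe day 3 was above that of either other group. Jon25Biii was at 58945 at Pe day 3, against 1332 at Pe day 0 and 62432 in Mock, a 44.2-fold rise. Jon99Fi and Jon99Fii each rose 28.2-fold, and iotaTry 24.7-fold. The trypsin genes betaTry and epsilonTry rose past Mock. They stood at 132195 and 129662 at Pe day 3, against 23701 and 14204 at Pe day 0, and were 1.69-fold and 1.82-fold above Mock in the authors' deposited table. By that table, 4 of the 12 trypsins were higher and 3 lower than Mock at Pe day 3, and 3 and 3 of the 16 Jonah genes.

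Other digestive families varied more from member to member. Among lysozyme genes 4 of 6 rose and 1 fell, with the same counts under library totals. LysB, LysD and LysE rose 9.86-fold, 11.02-fold and 9.49-fold, whereas LysX was at 16.3 at Pe day 3, against 1252 at Pe day 0 and 6.16 in Mock. LysX reached the minimum mean through Pe day 0 alone, so its fall follows in part from that minimum. The alpha-mannosidase genes did not move alike, and 4 of 6 were below Mock at Pe day 3 in the authors' deposited table. LManI (3491 at Pe day 3, 83.1 at Pe day 0, 5087 in Mock) and LManII (23749 at Pe day 3, 464 at Pe day 0, 45616 in Mock) rose and did not pass against Mock in the authors' deposited table. LManIII was at 83.5 at Pe day 3 and 106 at Pe day 0, against 2563 in Mock, and LManIV at 4.04 and 40.8, against 293 in Mock. LManVI rose 14.2-fold to 8051 but was 6.17-fold below Mock in the authors' deposited table. Over the 6 genes 3 rose and 1 fell (3 and 2 with library totals), with wide errors of up to 0.89 among those named.

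Of 15 lipase and sterol uptake genes 10 rose and 2 fell (7 and 3 with library totals). The lipase gene mag was at 17463 at Pe day 3, against 728 at Pe day 0 and 28091 in Mock. The sterol uptake gene Npc1b was at 32060, against 3577 at Pe day 0 and 12992 in Mock, and thus highest at Pe day 3. Npc2d (3.22, SE 0.23), of the same uptake, rose too. Lip3 fell to 11.6 at Pe day 3, against 106 at Pe day 0 and 68.4 in Mock. Among maltase and amylase genes 1 of 14 rose, 5 fell and 8 were not called (1 higher and 9 lower with library totals), at a median of -0.30. The riser was the amylase gene Amy-d (2.10, SE 0.55). The glucosidase gene tobi was at 47526 at Pe day 3, against 188194 at Pe day 0 and 50997 in Mock, and Mal-A3 fell 9.45-fold. Genes of the peritrophic matrix, the chitinous lining that shields the gut wall, and of mucins rose in 7 of 13 cases and fell in 3 (5 and 3 with library totals). Peritrophin-15a was at 19692 at Pe day 3, against 4494 at Pe day 0 and 13128 in Mock, while Muc55B (-2.01, SE 0.14) and Muc18B (-4.35, SE 0.44) fell, the last having reached the minimum mean through Pe day 0 alone.

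**Figure D3:**
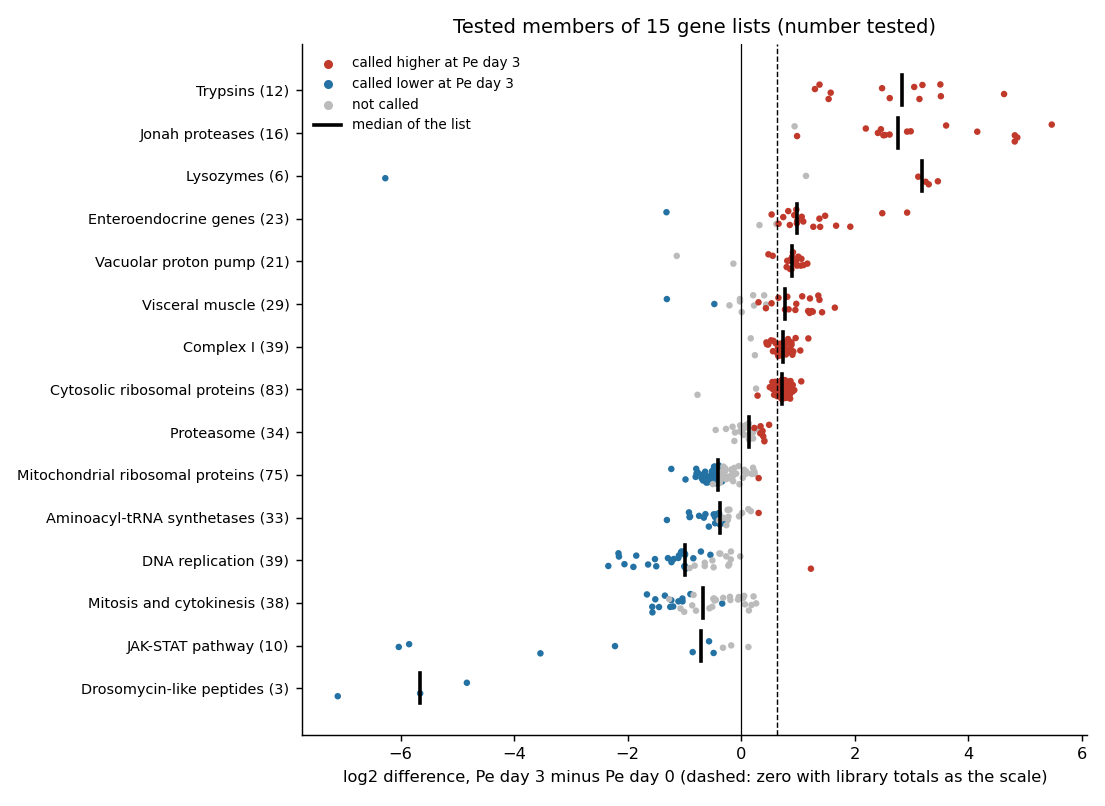
Log2 difference (Pe day 3 minus Pe day 0) of each tested member of 15 gene lists, coloured by call, with list medians as black bars and a dashed line where zero lies with library totals as the scale. Cytosolic ribosomal protein and complex I genes gather at the dashed line with medians of 0.72 and 0.74, whereas mitochondrial ribosomal protein genes lie to its left at a median of -0.41.

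Ribosomal protein genes of the cytosol and of the mitochondrion moved apart. Of 83 cytosolic ribosomal protein genes 81 rose and 0 fell, at a median of 0.72, but with library totals 11 rose and 3 fell at a median of 0.08. RpS6 was at 35619 at Pe day 3, against 20104 at Pe day 0 and 51746 in Mock, and RpL36 at 21814, against 11988 at Pe day 0 and 31322 in Mock. By the authors' deposited table, 79 of the 83 were below Mock at Pe day 3, with a median of -0.44, and the list held 10.2% of counts at Pe day 3, 9.59% at Pe day 0 and 13.6% in Mock. Of 75 mitochondrial ribosomal protein genes 1 rose and 41 fell (0 and 75 with library totals), at a median of -0.41. mRpL39 was at 392.4 at Pe day 3, against 921 at Pe day 0 and 585 in Mock, and mRpL44 at 274, against 541 at Pe day 0 and 376 in Mock. In the authors' deposited table, 39 of the 75 were below Mock at Pe day 3 and 0 above. The medians of the lists differed by 1.13 on the log2 scale, a gap that no choice of scale changes. The cytosolic list is far more abundant, and abundance moved with the difference over all genes, as given further on.

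Other genes of the translation machinery fell or split. Aminoacyl-tRNA synthetase genes fell in 20 of 33 cases and rose in 1 (33 and 0 with library totals), ThrRS among them (2744 at Pe day 3, 4249 at Pe day 0, 2824 in Mock). In the list of ribosome assembly and Myc genes 11 of 32 fell and 1 rose (30 and 1 with library totals), with Surf6 at -1.25 (SE 0.19) and the riser Non1 at 1.09 (SE 0.16). Translation initiation factor genes rose in 15 of 35 cases and fell in 5, which turned to 0 and 28 with library totals. The gene for eIF6, a factor that holds ribosomal subunits apart, fell to 1150 at Pe day 3, against 3023 at Pe day 0 and 1124 in Mock. Proteasome genes rose in 8 of 34 cases and fell in 0, at a median of 0.14, and with library totals 0 rose and 31 fell. The 23.5% that rose on the deposited scale was below the 27.3% over all genes.

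Respiratory chain genes rose with the cytosolic ribosome. Complex I genes rose in 37 of 39 cases and fell in 0, and those of complexes II to V in 38 of 41 with 1 lower, both at a median of 0.74. With library totals the counts were 3 higher and 2 lower, and 7 higher and 5 lower. ND-51 was at 5347 at Pe day 3, against 3099 at Pe day 0 and 5295 in Mock, a call lost with library totals, and the mitochondrially encoded mt:CoII at 56907, against 29603 at Pe day 0 and 65442 in Mock. None of the complex I genes and 1 of complexes II to V passed against Mock at Pe day 3 in the authors' deposited table. Vacuolar proton pump genes, which serve acid secretion in the copper cell region, rose in 19 of 21 cases and fell in 0 (9 and 2 with library totals). VhaAC45 was at 24165 at Pe day 3, against 10785 at Pe day 0 and 19472 in Mock, and Vha36-1 rose 2.07-fold.

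**Figure D4:**
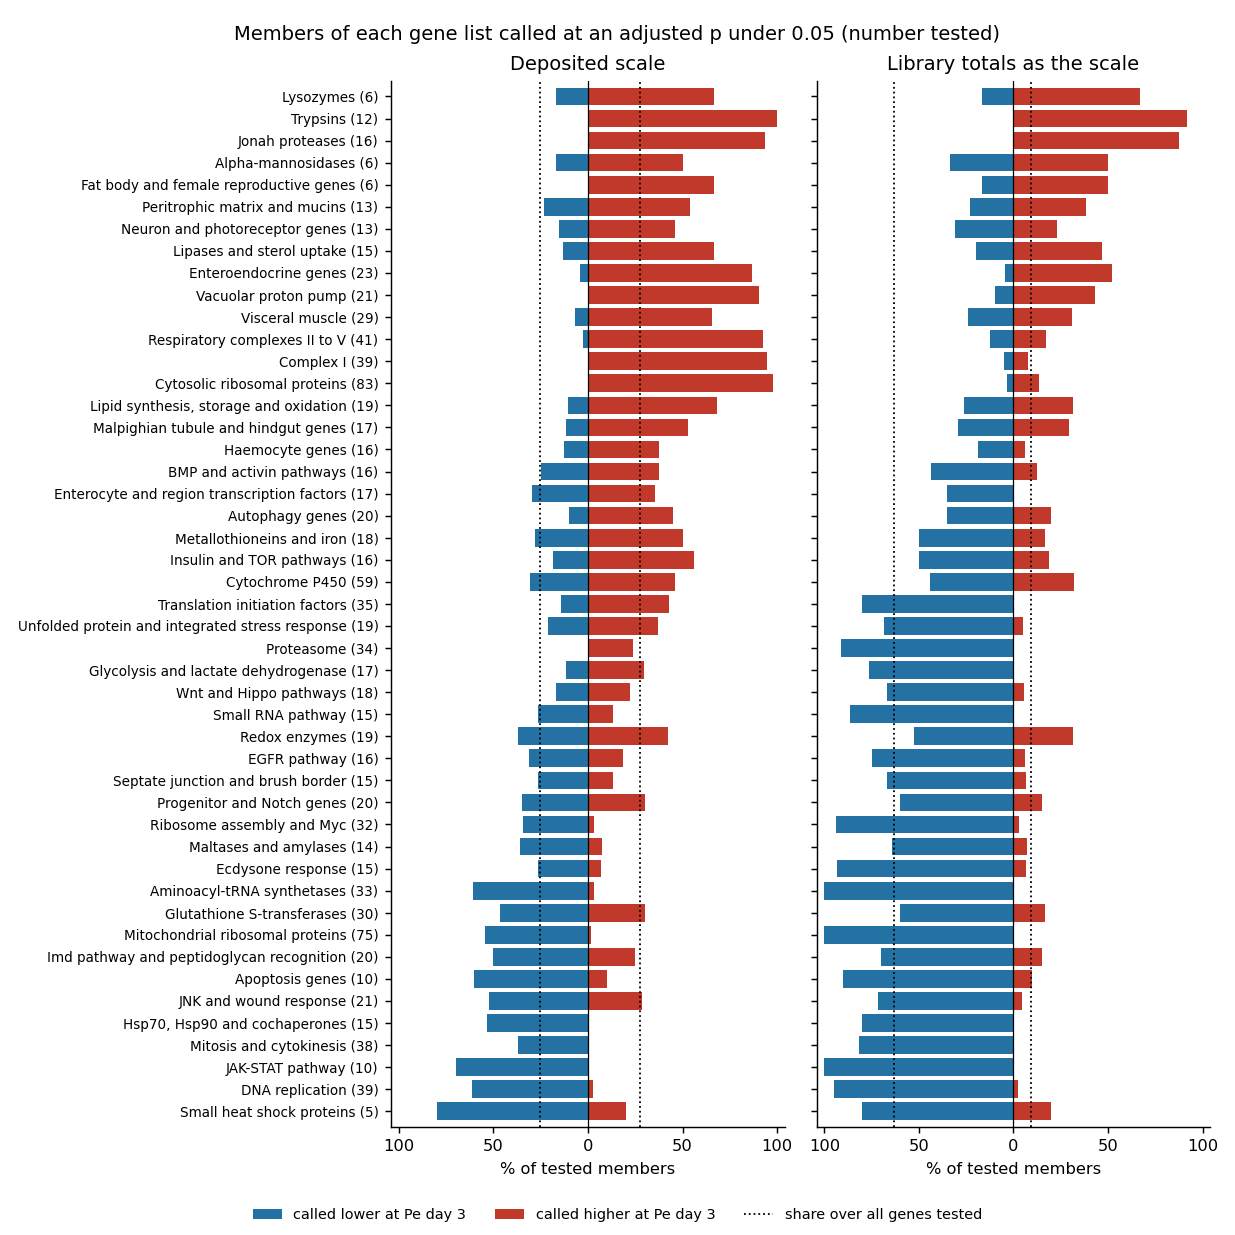
Share of tested members of each list with 5 or more tested genes called higher (right) or lower (left) at Pe day 3, on the deposited scale and with library totals, with dotted lines at the shares over all genes tested. Trypsin, Jonah protease and enteroendocrine bars lie wholly or mostly to the right on both scales, and those of ribosomal protein and respiratory chain genes shrink with library totals.

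Markers of the other cells of the gut wall and of neighbouring tissues moved between the groups too, and their part in the results above was not tested. Visceral muscle genes rose in 19 of 29 cases and fell in 2 (9 and 7 with library totals), and held 0.405% of counts at Pe day 3, 0.443% at Pe day 0 and 0.373% in Mock. The myosin genes Mhc (1.20, SE 0.12) and Mlc2 (1.42, SE 0.14) rose and the Z-disc gene Zasp52 (-1.31, SE 0.12) fell. Haemocyte genes rose in 6 of 16 cases and fell in 2, peb and ush (1 and 3 with library totals). They held 0.0392% of counts at Pe day 3, 0.0761% at Pe day 0 and 0.0341% in Mock. The gene peb alone made up most of the share at Pe day 0. It was at 3362 at Pe day 3, against 7168 at Pe day 0 and 2636 in Mock. Of 28 fat body and female reproductive genes in the table, 6 were tested and 4 rose (3 with library totals, where 1 fell). Yp1, a yolk protein gene, was at 3326 at Pe day 3, against 862 at Pe day 0 and 3562 in Mock, and Yp2 rose with it (2.26, SE 0.50). Malpighian tubule and hindgut genes rose in 9 of 17 cases and fell in 2 (5 and 5 with library totals), among them the transporter gene Oatp58Da at 245 at Pe day 3, 32.7 at Pe day 0 and 245 in Mock. Transcription factor genes of enterocytes and gut regions rose in 6 of 17 cases and fell in 5 (0 and 6 with library totals). The enterocyte factor gene nub was at 3915 at Pe day 3, against 6829 at Pe day 0 and 2998 in Mock, and the septate junction gene mesh at 28649, against 47357 at Pe day 0 and 19764 in Mock. Among 15 genes of septate junctions and the brush border, 2 rose and 4 fell (1 and 10 with library totals).

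The difference between the groups varied with a gene's abundance and chromosome, and less with transcript length. These are descriptions over genes, which are not independent. Genes were put into 5 bins of equal size by abundance and 5 by length. In the most abundant bin 54.0% rose and 19.6% fell at a median of 0.36, against 14.7% and 22.3% at a median of -0.15 in the least abundant bin. With library totals these became 22.9% and 50.5% at a median of -0.28, against 4.79% and 48.1% at a median of -0.79. In the bin with the longest transcripts the median was 0.07, and in that with the shortest 0.03. Chromosome 4, the small and largely heterochromatic dot chromosome, stood apart from the other nuclear chromosomes. Of its 64 tested genes 34 rose (53.1%) and 2 fell, at a median of 0.44, while the medians of the arms 2L, 2R, 3L and 3R and of the X lay between -0.03 and -0.01. With library totals 7.81% of them rose and 34.4% fell, against 9.32% and 63% over all genes. Their median against Mock in the authors' deposited table was -0.44 at Pe day 0 and 0.05 at Pe day 3. These genes had a median longest transcript of 4032 bases, within the range of the longest bin (3871 bases and over), where 28.6% rose. Their median deposited mean was 802, within the range of the fourth bin by abundance (719 to 1806), where 33.1% rose. All 12 tested genes of the mitochondrial genome lay above 0 at a median of 0.87, and 11 of them were called higher (25% with library totals).

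**Figure D5:**
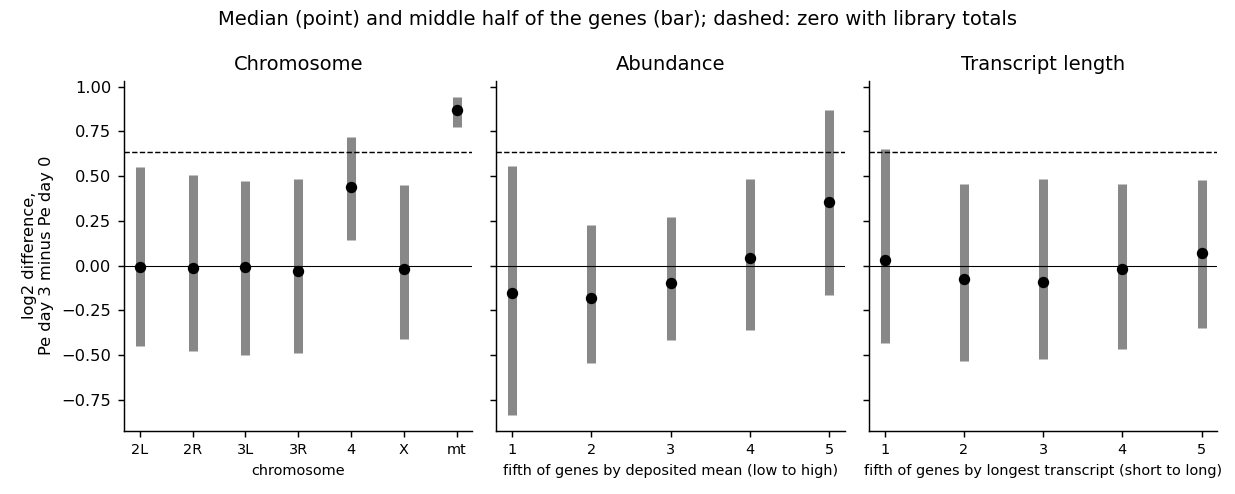
Median log2 difference (points) with its 25th to 75th percentile (bars), Pe day 3 minus Pe day 0, by chromosome, by 5 bins of deposited mean and by 5 bins of longest transcript. Chromosome 4 (median 0.44), the mitochondrial genome (0.87) and the most abundant bin (0.36) lie above the rest.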

How the data were processed

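Total RNA from adult midguts was sequenced in 6 libraries, 2 per group. Per the submitters' processing notes, DESeq2 1.22.0, Salmon 0.11.3, fastp 0.19.5 and CASAVA 1.8 were used with build BDGP6. What each tool did, which annotation release served and whether strand counted are not stated there. The deposited table holds, per the file headers, a mean signal per gene (normalised counts over all libraries). For each Pe group against Mock it also holds the authors' log2 fold change and its standard error in log2 units, a Wald statistic as a score, and p-values before and after adjustment. Per the labels the libraries of a group are separate samples, but nothing says that they came from separate dissections. The p-values thus measure no more than the spread between libraries. That spread enters as a dispersion shared by all 6 libraries, Mock included.

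The log2 difference was the deposited Pe day 3 value minus the deposited Pe day 0 value. Its standard error came from the dispersion solved from both deposited errors, with the variance shared through Mock removed. The method was tested on simulated data made with the same scaling factors and a known dispersion. That test could not check how well these were estimated. Two-sided Wald p-values were adjusted by Benjamini-Hochberg over genes with a mean of at least 20, and an adjusted p under 0.05 was a call. The edgeR or DESeq2 count test planned for values per library was not run because the table holds none. Group levels were solved from the mean and both fold changes, and depth from genes with 1 read in all. Intervals are 95% normal ones. Python 3.11.15, numpy 2.4.6, pandas 2.3.3 and scipy 1.17.1 were used, and 8278 of the tested gene IDs matched the BDGP6.54 annotation, which gave chromosomes, lengths and overlaps. Of 143 genes named by the rule or after, 30 overlap another tested gene, and their reads may be shared.

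The genes and the 52 gene lists were chosen with earlier results of these data known. Named genes were the 12 largest called rises and falls among genes with a mean of at least 100 and a symbol that is not a number, a fixed panel of signalling, stress, cell type and digestive genes, and up to 3 members per list and direction with the largest Wald statistic. Alternatives varied the scaling, the minimum mean, the dispersion and the standard error.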

Additional observations from a re-analysis of the deposited data

How the results depend on the processing

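The counts of calls depend first on the scaling. Library totals gave 778 genes higher, 5263 lower and 2807 called with at least a 2-fold difference, and totals without the 20 most abundant genes gave 1168 higher and 4268 lower, against 2281, 2109 and 1683 on the deposited scale. By construction both shift every gene alike. A standard error that ignores the sharing of Mock, an upper bound, gave 1350 lower. Stat92E reversed, to -0.51 with library totals and -0.30 without the 20 genes, and spi reversed to -0.12 with library totals. Of 143 named genes, 134 kept their direction and call with library totals, 136 without the 20 genes and 139 with the wider error, which ended the calls of rho, Hsp68, pros and Arr2. Dropping the minimum mean, raising it to 100, asking for a deposited adjusted p in both comparisons, or solving the dispersion from either comparison changed no call among the named genes tested. No paired analysis was possible because the table holds no values per library, and leaving out single replicates was not run for the same reason. A library that stands apart could thus not be seen, and which scale is right was not tested.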

Other observations

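Lists of lipid, metal, autophagy, redox and photoreceptor genes each held members that rose and members that fell. Lipid synthesis, storage and oxidation genes rose in 13 of 19 cases and fell in 2 (6 and 5 with library totals). The lipid droplet gene Lsd-2 was at 10852 normalised counts at Pe day 3, against 2390 at Pe day 0 and 8443 in Mock, and CPT2, of mitochondrial fatty acid import, rose (log2 difference 1.30, SE 0.12). The fatty acid synthase gene FASN1 fell (-0.79, SE 0.16). Of 18 metallothionein and iron genes 9 rose and 5 fell (3 and 9 with library totals). The metal-binding genes MtnD and MtnE fell to 764 and 1335 at Pe day 3, against 1884 and 2965 at Pe day 0 and 2386 and 2848 in Mock. Zip42C.1, a zinc transporter gene, was at 352 at Pe day 3, against 17.9 at Pe day 0 and 240 in Mock. Autophagy genes rose in 9 of 20 cases and fell in 2 (4 and 7 with library totals), Atg8a (0.88, SE 0.11) and Atg101 (1.49, SE 0.19) among the risers. Of 19 redox enzyme genes 8 rose and 7 fell (6 and 10 with library totals), at a median of -0.06. The superoxide dismutase genes Sod1 (0.99, SE 0.12) and Sod3 (1.69, SE 0.17) were among the risers. The catalase gene (-0.43, SE 0.09) and a thioredoxin gene (-0.54, SE 0.13) were among the fallers.

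Of 30 neuron and photoreceptor genes in the table, 13 were tested, of which 6 rose and 2 fell (3 and 4 with library totals). The rhodopsin gene ninaE was at 171 at Pe day 3, against 0.351 at Pe day 0 and 1.224 in Mock, and the arrestin gene Arr2 at 65.1, against 0.699 at Pe day 0 and 0.620 in Mock. Both reached the minimum mean through Pe day 3 alone, so their rises follow in part from that minimum. The SEs of these differences were 1.95 and 1.89, and with values per library lacking it cannot be seen whether 1 or both Pe day 3 libraries carried these transcripts. The calcium channel gene cac was at 220 at Pe day 3, against 20.04 at Pe day 0 and 54.9 in Mock. The 2 that fell were inaD (9.45 at Pe day 3, 144 at Pe day 0, 7.91 in Mock) and moody (-0.53, SE 0.16). Of these inaD reached the minimum mean through Pe day 0 alone. The gene norpA of the same list was not called (-0.35, SE 0.18).

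Among large falls outside the pathways above, the nicotinamidase gene Naam was at 93.2 at Pe day 3, against 3054 at Pe day 0 and 89.2 in Mock. The gustatory receptor gene Gr94a was at 24.0 at Pe day 3, against 683 at Pe day 0 and 26.2 in Mock, and it overlaps p53, which also fell, on the other strand. Ir25a, an ionotropic receptor gene, was at 11.2 at Pe day 3, against 278 at Pe day 0 and 28.2 in Mock, and reached the minimum mean through Pe day 0 alone. In the ecdysone list 1 of 15 rose and 4 fell (1 and 14 with library totals), with Eip75B (-1.14, SE 0.19) and Hr4 (-1.92, SE 0.37) lower and Eip71CD (2.31, SE 0.14) higher. The 26.7% of that list that fell was near the 25.3% over all genes. In the Wnt and Hippo list 4 of 18 rose (22.2%) and 3 fell (16.7%), both below the 27.3% and 25.3% over all genes. With library totals 1 rose and 12 fell. Unfolded protein and integrated stress response genes rose in 7 of 19 cases and fell in 4 (1 and 13 with library totals). Glycolysis genes rose in 5 of 17 cases and fell in 2 (0 and 13 with library totals). The 29.4% of glycolysis genes that rose was near the 27.3% over all genes. Small RNA pathway genes rose in 2 of 15 cases and fell in 4 (0 and 13 with library totals), armi (-1.18, SE 0.22) among the fallers. The 26.7% of small RNA pathway genes that fell was again near the share over all genes.

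Some neighbouring genes moved together, and no share expected by chance was computed. Runs of at least 4 adjacent tested genes, all called and all at least 2-fold different in 1 direction, numbered 23, a rule chosen after the data were seen. The longest, on 2R, spanned 15 genes around the trypsin cluster, at a median log2 difference of 2.93. On 3L the 4 lysozyme genes from LysB to LysE (1207371 to 1213406, BDGP6.54) rose at a median of 3.27, and Hsp22, Hsp26, Hsp23 and Hsp27 (9372931 to 9385694) fell at a median of -2.62. On 3R, GstD10, GstD9, GstD1 and GstD2 (12364776 to 12372704) fell at a median of -1.43. Duplicated genes share reads, so neighbours in these clusters are not independent.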
